A study of Mus musculus with 3 samples.

Results

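Genes of the mitochondrial ribosome were examined in messenger RNA of NSC-34 cells, a mouse hybrid line in which embryonic spinal cord cells, enriched for motor neurons, were fused to neuroblastoma cells. Members were the genes of the count table whose symbol begins with Mrpl or Mrps followed by a number, without pseudogenes, which gave 77 of the 22976 genes listed. They comprised 48 Mrpl and 29 Mrps genes, and each of the 77 passed the filter on low counts that left 13705 genes. The tested libraries were 2 clones of genotype WT-spontaneously resistant to PR20, for which the labels give 10 µM of PR20 and 3 weeks. The comparison was 1 library of NSC-34 cells of genotype WT with treatment none, called untreated here. PR20 is a proline-arginine dipeptide repeat, a kind of product translated from the expanded C9ORF72 repeat in amyotrophic lateral sclerosis. Each clone library is a single clone, and the labels do not say whether the clones came from separate cultures or held PR20 at harvest. The spread behind every p-value is therefore that between libraries, and it may be technical.

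The mitochondrial ribosome translates the messenger RNAs that mitochondrial DNA encodes, which specify core subunits of the respiratory chain and of ATP synthase. Its ribosomal RNAs come from mitochondrial DNA, whereas its proteins are encoded in the nucleus, made in the cytosol and imported. Some of these proteins have bacterial counterparts, and others are found only in mitochondria. Genes named Mrpl encode proteins of the large subunit, which joins amino acids. Genes named Mrps encode proteins of the small subunit, which reads the message, with exceptions: Mrps30 and Mrps18a proteins sit in the large subunit, and Mrps36 is now known as a subunit of the alpha-ketoglutarate dehydrogenase complex.

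The libraries held 11389663 gene counts in clone 1, 11307034 in clone 2 and 11700755 in untreated cells. Levels are counts scaled to library size (CPM, with TMM factors). The 7 listed motor neuron markers summed to 6.15 and 4.94 CPM in the clones and 24.9 CPM in untreated cells, and Chat, the acetylcholine synthesis gene of cholinergic neurons, motor neurons among them, had 0, 0 and 7 counts. The 9 listed markers of immune, endothelial, epithelial and glial cells summed to 13.4, 14.5 and 19.2 CPM. In bulk RNA, fewer cells of a type and less RNA per cell cannot be told apart, and the part of any of this in the results below was not tested.

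Mitochondrial ribosomal protein genes moved little and in both directions. Of the 77 genes, 11 rose and 16 fell in the clones, and 50 were not called. The called share was 35.1%, against 50.1% of all genes tested. The share that rose was 14.3%, against 24.3% of all genes tested, and the share that fell was 20.8%, against 25.8%. The median log2 fold change of the family was -0.03, with an interquartile range from -0.18 to 0.12. Over all genes tested the median was 0.00, with an interquartile range from -0.36 to 0.31. Fold changes of all 77 genes lay within 1.5-fold in either direction, as did 71.6% of all genes tested. Within 1.25-fold lay 66 of the 77 (85.7%), against 49.3% of all genes tested. The standard deviation of the log2 fold changes was 0.23 over the family. It was 1.08 over all genes tested and 0.68 over the 7767 genes whose mean CPM lay in the same range, of which 57.3% were called. Of these 7767 genes, 83.0% lay within 1.5-fold and 58.8% within 1.25-fold.

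These counts rest on edgeR's quasi-likelihood test, whose spread comes from the 2 clones, since the untreated library has no replicate. Called genes were selected by this comparison, so finding both clones on the same side of untreated cells adds no separate support. DESeq2 on the same genes called 3 of the 77 (22.2% of all genes), which were Mrpl12, Mrpl13 and Mrps6. The authors' deposited table, also made with DESeq2 on these libraries, lists the same 3 with an adjusted p under 0.05 (19.8% of its genes with an adjusted p). Without the filter on low counts edgeR called 0 of the 77, of which 26 had an unadjusted p under 0.05, and 4 of all 22976 genes (0.0174%). With the variation between libraries preset at 10%, Mrpl13 and Mrps6 were called lower and 0 of the 77 higher, against 26.4% of all genes called. With 20%, 0 of the 77 were called, against 8.38% of all genes.

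**Figure D1:**
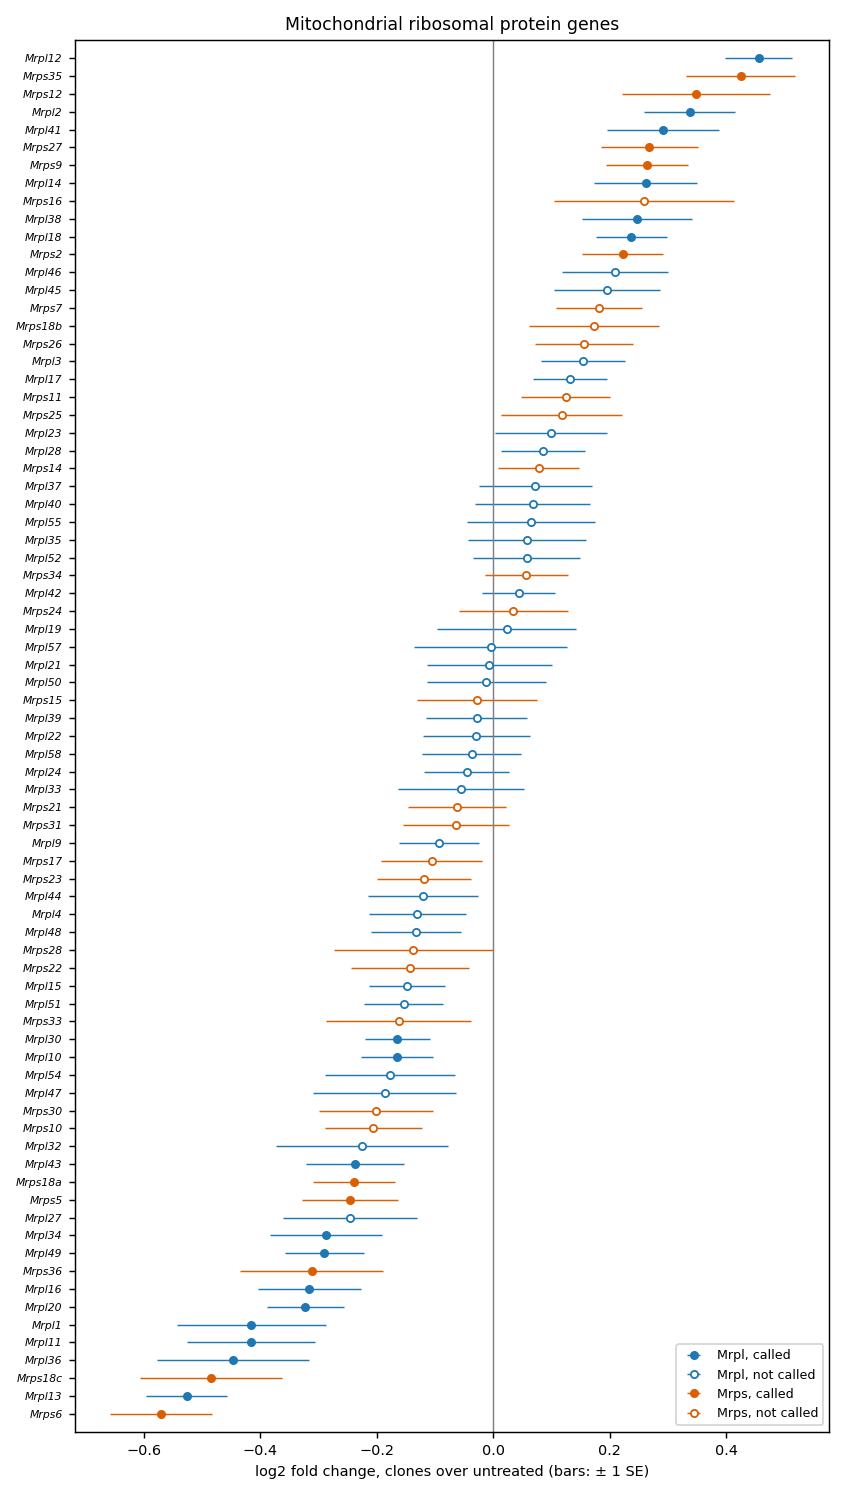
Log2 fold change of the clones over untreated cells for each of the 77 Mrpl (blue) and Mrps (orange) genes, with bars of 1 SE; filled circles mark genes called by edgeR at an adjusted p under 0.05. Values run from -0.57 (Mrps6) to 0.46 (Mrpl12), with 11 filled circles on the right and 16 on the left.

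The summed level of the family was 4168 CPM in clone 1, 4184 CPM in clone 2 and 4215 CPM in untreated cells, which gives 4176 ± 11.2 CPM in the clones (SD, n = 2). The Mrpl genes summed to 2832 and 2860 CPM in the clones and to 2889 CPM in untreated cells. The Mrps genes summed to 1336 and 1324 CPM in the clones and to 1326 CPM in untreated cells, a value between those of the clones. Before TMM scaling, the family took 0.411% of gene counts in clone 1 (95% Wilson interval 0.407 to 0.415%), 0.412% in clone 2 (0.408 to 0.415%) and 0.433% in untreated cells (0.429 to 0.437%). These intervals cover counting error only.

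Within the family, levels differed far more between genes than between libraries. Mrpl32 had the lowest level, with 13.8 and 13.7 CPM in the clones and 16.1 CPM in untreated cells. The highest was Mrpl12 in the clones, at 229 and 237 CPM, and Mrpl30 in untreated cells, at 202 CPM. Counts of single members ranged from 152 to 2637 reads. Per kilobase of annotated exon, Mrpl12 was highest in every library, with 149, 155 and 111 CPM per kilobase in clone 1, clone 2 and untreated cells. By that measure Mrpl32 was lowest in every library, with 2.77, 2.74 and 3.22 CPM per kilobase. The order depends on the length used: per kilobase of median transcript, Mrpl18 led in the clones (352 and 369 CPM per kilobase), Mrpl30 led in untreated cells (314 CPM per kilobase) and Mrpl1 was lowest in every library.

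Mrpl12 had the largest rise. It encodes the protein of the flexible stalk of the large subunit, through which translation factors are recruited, and its protein has also been reported to bind mitochondrial RNA polymerase. The gene (ENSMUSG00000039640.7; GRCm38 chromosome 11) had 2567 and 2637 counts in the clones and 2041 in untreated cells, or 229 and 237 CPM against 170 CPM. An exon of Gm16755 overlaps it on the opposite strand. Both clones lay above untreated cells, which is 0.46 ± 0.06 as log2 fold change (± SE; edgeR adjusted p = 6.59e-06). Other parts of the stalk and its base, chosen after their values were seen, moved the other way. Mrpl10, which anchors the stalk, had 110 and 108 CPM in the clones and 122 CPM in untreated cells (log2 fold change -0.17, edgeR adjusted p = 0.0372). Mrpl11, at the stalk base, had 24.6 and 28.0 CPM in the clones and 35.1 CPM in untreated cells (log2 fold change -0.42, edgeR adjusted p = 0.00486).

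Among other large subunit genes that rose, Mrpl2 encodes the counterpart of bacterial L2, which lies near the catalytic centre. It had 70.0 and 66.6 CPM in the clones and 54.1 CPM in untreated cells, which is 0.34 ± 0.08 as log2 fold change (± SE; edgeR adjusted p = 0.00193). Mrpl14, counterpart of bacterial L14, had 46.9 and 46.0 CPM in the clones against 38.8 CPM, and Mrpl18, counterpart of bacterial L18, had 154 and 162 CPM against 134 CPM. Of the proteins found only in mitochondria, Mrpl41 had 39.4 and 38.8 CPM in the clones against 32.0 CPM in untreated cells, and Mrpl38 had 40.2 and 41.2 CPM against 34.3 CPM. In each of these 4 genes both clones lay above untreated cells, with log2 fold changes from 0.24 to 0.29.

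The small subunit genes that rose were Mrps35, Mrps12, Mrps27, Mrps9 and Mrps2. Mrps35, which encodes a protein found only in mitochondria, had 43.6 and 45.6 CPM in the clones and 33.2 CPM in untreated cells, which is 0.42 ± 0.09 as log2 fold change (± SE; edgeR adjusted p = 0.00132). Mrps12, counterpart of the decoding centre protein S12, had 24.6 and 28.6 CPM in the clones and 20.9 CPM in untreated cells (log2 fold change 0.35, edgeR adjusted p = 0.0321). With limma-voom the Mrps12 call was lost (adjusted p = 0.0611). Mrps27, a pentatricopeptide repeat protein gene, had 54.1 and 52.9 CPM against 44.4 CPM. Mrps9 and Mrps2, counterparts of bacterial S9 and S2, had log2 fold changes of 0.26 and 0.22, with both clones above untreated cells.

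The largest fall was that of Mrps6, counterpart of bacterial S6 of the small subunit. It had 422 and 393 counts in the clones and 651 in untreated cells, or 37.6 and 35.3 CPM against 54.2 CPM, which is -0.57 ± 0.09 as log2 fold change (± SE; edgeR adjusted p = 5.29e-05). Exons of Mrps6 overlap those of Slc5a3, an inositol transporter gene, on the same strand, so reads of the shared part are uncertain. Slc5a3 itself had -0.14 as log2 fold change (edgeR adjusted p = 0.288). Mrpl13, counterpart of bacterial L13, had 63.9 and 65.4 CPM in the clones and 93.0 CPM in untreated cells, which is -0.53 ± 0.07 as log2 fold change (± SE; edgeR adjusted p = 1.18e-05). Its exons overlap those of Mtbp on the opposite strand. Mrpl13 is the only member on chromosome 15, where the median log2 fold change of all 550 genes tested was -0.28.

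Of further large subunit genes that fell, Mrpl36, counterpart of bacterial L36, had 16.03 and 17.17 CPM in the clones and 22.6 CPM in untreated cells (log2 fold change -0.45, edgeR adjusted p = 0.00915). Mrpl1, of the other stalk of the large subunit, had 19.1 and 17.0 CPM against 24.0 CPM (log2 fold change -0.42, edgeR adjusted p = 0.0133). Mrpl20, whose bacterial counterpart acts in early assembly, had 79.9 and 80.5 CPM against 100.4 CPM (log2 fold change -0.32, edgeR adjusted p = 0.000738), and Mrpl16 had 43.4 and 39.6 CPM against 51.7 CPM. Mrpl49, found only in mitochondria, had 73.7 and 74.6 CPM in the clones and 90.7 CPM in untreated cells (log2 fold change -0.29, edgeR adjusted p = 0.00218). In each of these genes both clones lay below untreated cells. Mrpl34, Mrps5, Mrps18a, Mrpl43, Mrpl10 and Mrpl30 were also called lower, with log2 fold changes from -0.29 to -0.16. Mrps36, the dehydrogenase subunit gene, had 20.4 and 18.9 CPM against 24.4 CPM (edgeR adjusted p = 0.0455) and was not called with RLE size factors (adjusted p = 0.0546) or limma-voom (adjusted p = 0.0506).

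**Figure D2:**
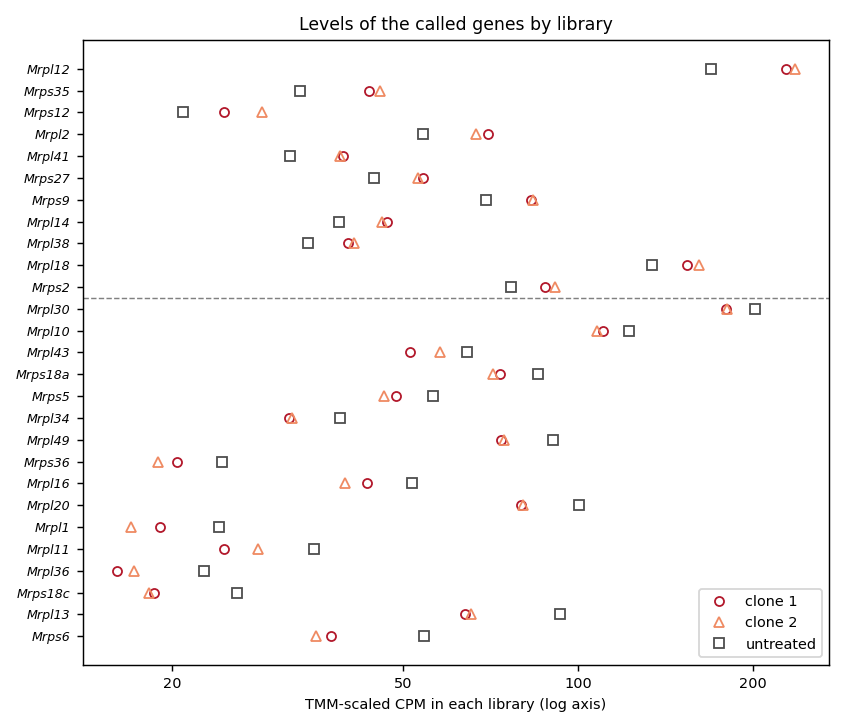
TMM-scaled CPM on a log axis of the 27 called genes in clone 1 (circles), clone 2 (triangles) and untreated cells (squares), with the 11 genes that rose above the dashed line and the 16 that fell below it. The clones lie on the same side of untreated cells for each of the 27, as they do for 68 of all 77. Selection by this same comparison makes that likely, and both clones share 1 untreated library. Mrpl12 stands highest in the clones, at 229 and 237 CPM.

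Promoter windows of 250 bases before to 50 after the start were matched by symbol in RefSeq (GRCm38.p6) for 68 of the 77 genes and searched on both strands for short words of known factors. The NRF1 word GCGCANGCG occurred in windows of 16 of the 68 (23.5%), against 15.4% of 9987 tested genes with a window and 7.03% of all RefSeq promoters. The ETS word CCGGAAG, bound by GABP, occurred in 25 (36.8%), against 20.2% and 9.93%. The YY1 word AAGATGGCG occurred in 8 (11.8%), against 3.59% and 1.64%. Of 65 cytosolic ribosomal protein genes with a window, 13.8% held the NRF1 word, 38.5% the ETS word and 6.15% the YY1 word. The ETS and YY1 words can share the letters AAG, but matches of different words shared letters in 0 of the 68 genes' windows. Of 9 genes that rose and have a window, 3 held the NRF1 word, 3 the ETS word and 1 the YY1 word. Of 15 genes that fell and have a window, 2 held the NRF1 word, 4 the ETS word and 2 the YY1 word. A match describes letters in the window only.

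The windows of 4 members are shown, since these genes carry the largest rise and fall, the pair with Fau, and a window with more than one word. Capitals mark the matched words, and windows in lower case throughout held none. Mrpl12 is at chr11:120484387-120484686 on the plus strand, with the NRF1 word read on the other strand, and Mrps27 is at chr13:99344536-99344835 on the plus strand, with the ETS word on the other strand and the YY1 word near the start. Mrps6 is at chr16:92058086-92058385 on the plus strand, and Mrpl49 is at chr19:6057706-6058005 on the minus strand.
Mrpl12: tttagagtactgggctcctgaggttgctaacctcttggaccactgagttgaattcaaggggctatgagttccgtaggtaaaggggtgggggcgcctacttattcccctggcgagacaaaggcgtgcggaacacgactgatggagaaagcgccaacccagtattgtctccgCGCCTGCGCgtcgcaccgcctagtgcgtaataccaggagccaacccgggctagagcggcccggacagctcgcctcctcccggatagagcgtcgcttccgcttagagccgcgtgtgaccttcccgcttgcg
Mrps27: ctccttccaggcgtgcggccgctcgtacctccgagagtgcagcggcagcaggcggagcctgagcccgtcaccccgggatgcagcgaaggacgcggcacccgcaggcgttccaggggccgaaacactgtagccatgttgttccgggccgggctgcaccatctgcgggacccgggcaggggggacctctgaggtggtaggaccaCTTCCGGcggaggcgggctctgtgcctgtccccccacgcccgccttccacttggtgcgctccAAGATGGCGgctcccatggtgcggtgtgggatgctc
Mrps6: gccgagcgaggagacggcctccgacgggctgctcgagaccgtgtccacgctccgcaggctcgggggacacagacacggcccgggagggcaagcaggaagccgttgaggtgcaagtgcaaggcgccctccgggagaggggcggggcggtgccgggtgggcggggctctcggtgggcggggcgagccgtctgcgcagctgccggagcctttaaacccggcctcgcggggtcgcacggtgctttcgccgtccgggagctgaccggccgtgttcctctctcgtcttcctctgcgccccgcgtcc
Mrpl49: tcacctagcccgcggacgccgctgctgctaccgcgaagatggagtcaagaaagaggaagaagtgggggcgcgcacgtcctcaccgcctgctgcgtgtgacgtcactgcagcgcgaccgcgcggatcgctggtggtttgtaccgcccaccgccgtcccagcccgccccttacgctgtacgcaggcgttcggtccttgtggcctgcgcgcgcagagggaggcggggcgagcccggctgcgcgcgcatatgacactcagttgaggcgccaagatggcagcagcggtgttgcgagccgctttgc
Beside these windows, Mrpl12 had a log2 fold change of 0.46 and Mrps27 of 0.27, while Mrps6 had -0.57 and Mrpl49 had -0.29.

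Of the 3 paralogues of bacterial S18, 2 were called lower, beside 20.8% of the family and 25.8% of all genes tested. DESeq2 called none of the 3 (adjusted p = 0.218 for Mrps18c). The 3 were chosen after their values were seen, and differences among them were not tested. Mrps18c had 18.6 and 18.2 CPM in the clones and 25.8 CPM in untreated cells (log2 fold change -0.48, edgeR adjusted p = 0.00336), with an exon overlap with Gm43511 on the same strand, and Mrps18a had 73.4 and 71.3 CPM against 85.4 CPM (log2 fold change -0.24, edgeR adjusted p = 0.00937). Mrps18b had 32.7 and 29.0 CPM in the clones and 27.4 CPM in untreated cells and was not called (log2 fold change 0.17, edgeR adjusted p = 0.214).

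By kind of protein, the 29 large subunit genes with bacterial counterparts had 4 higher and 9 lower, with a median log2 fold change of -0.09. The 21 other large subunit genes, with Mrps30 and the S18 paralogue Mrps18a counted here, had 2 higher and 3 lower (median -0.01). The 16 small subunit genes with bacterial counterparts had 3 higher and 3 lower (median 0.00), and the 10 other small subunit genes, with the S18 paralogue Mrps18b counted here, had 2 higher and 0 lower (median 0.09). In this order, 44.8%, 23.8%, 37.5% and 20% of the groups were called, against 50.1% of all genes tested. In the first group 13.8% were higher and 31% lower, against 24.3% and 25.8% of all genes tested. Differences between these groups were not tested.

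Mutations in many of these genes cause mitochondrial disease in humans, and 10 of the 13 genes named for disease or a known function did not pass the test. Over the family 35.1% were called, and over all genes tested 50.1%. Not passing does not show that a gene was unchanged. Mrps16, Mrps22, Mrps23, Mrps28, Mrps14, Mrps34, Mrps7, Mrpl3 and Mrpl44 were not called, with log2 fold changes from -0.14 (Mrps22) to 0.26 (Mrps16). Mrps7, of the small subunit head, had 70.0 and 70.8 CPM in the clones and 62.1 CPM in untreated cells (edgeR adjusted p = 0.0516). Mrps22 had 29.6 and 30.4 CPM against 33.1 CPM, and Mrps34 had 72.7 and 72.5 CPM against 69.8 CPM. Mrpl58, a peptidyl-tRNA hydrolase that releases stalled chains, had 46.8 and 50.1 CPM in the clones and 49.7 CPM in untreated cells, a value between the clones.

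Levels in the clones lay close together in these genes, with no test possible for 1 library each. The log2 ratio of clone 2 over clone 1 had a median of 0.01 over the 77 genes and an interquartile range from -0.04 to 0.05, and 76 of the 77 lay within 1.25-fold. The exception was Mrps16, with 17.2 CPM in clone 2 and 21.6 CPM in clone 1 (log2 ratio -0.33), against 16.2 CPM in untreated cells. The opposite extreme was Mrpl54, with 32.5 CPM in clone 2 and 27.6 CPM in clone 1 (log2 ratio 0.23), against 34.0 CPM in untreated cells. Mrpl12 had 237 CPM in clone 2 and 229 CPM in clone 1, and Mrps6 had 35.3 and 37.6 CPM. The share of all genes within 1.25-fold between clones was not counted, so this closeness is not shown to be particular to the family.

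Chromosome medians differed in these libraries, with a median log2 fold change of 0.26 on chromosome 7, -0.28 on chromosome 15, 0.41 on chromosome 18 and -0.22 on chromosome X. Of the 77 members, 6 lie on chromosome 7, 1 on chromosome 15 and 0 on chromosomes 18 and X. The 6 on chromosome 7 had a median of 0.13, and 1 of them, Mrps12, was called higher. Refitting without these 4 chromosomes left 70 members, of which 11 were higher and 13 lower, with a median of -0.03. In the main fit the same 70 had 10 higher and 15 lower, with a median of -0.04. Over all 11322 genes of the refit, 2659 were higher and 2807 lower. The part of the chromosome-wide values in those of the members was not tested.

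Cytosolic ribosomal protein genes, which build the ribosome of the cytoplasm, were read from the same fit. Of 88 tested genes named Rpl or Rps, 53 were higher and 4 lower in the clones, with a median log2 fold change of 0.20, beside -0.03 for the mitochondrial family. That is 60.2% higher and 4.55% lower, against 24.3% and 25.8% of all genes tested. These calls are from edgeR only, and calls of this family with DESeq2 were not counted. They summed to 57761 and 59789 CPM in the clones and 51413 CPM in untreated cells. Many cytosolic ribosomal protein genes have near-identical pseudogenes that can take some of their reads. Of pseudogenes named after mitochondrial family members (symbols with -ps), 4 are listed with at most 8 counts in any library. Pseudogenes under other names were not searched. The difference between these families was not tested.

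**Figure D3:**
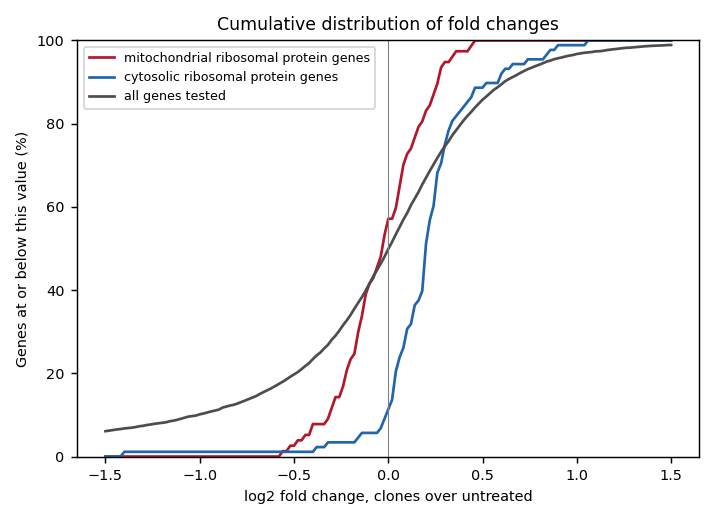
Cumulative share of genes (%) by log2 fold change of the clones over untreated cells, for the 77 mitochondrial ribosomal protein genes (red), the 88 cytosolic ribosomal protein genes (blue) and all 13705 genes tested (grey), drawn from -1.5 to 1.5. The red curve rises steeply around its median of -0.03, the blue one around 0.20, and the grey one is spread more widely.

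Over 6 lists of other genes of mitochondrial gene expression, edgeR called 20 higher and 14 lower of 88 tested (38.6%, against 50.1% of all genes). DESeq2 called 8 and 4 of the 88 (13.6%, against 22.2% of all genes). Subunits of the mitochondrial ribosome with other symbols gave 1 called gene of 5, and 0 with DESeq2. Aurkaip1, a small subunit protein gene, had 58.7 and 58.0 CPM in the clones and 71.8 CPM in untreated cells (log2 fold change -0.30, edgeR adjusted p = 0.00311). Chchd1, of the small subunit, and Gadd45gip1, of the large subunit, had log2 fold changes of -0.21 and 0.18 and were not called.

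Of 27 genes for mitochondrial ribosome assembly and ribosomal RNA modification, 4 rose and 3 fell (25.9% called, against 50.1% of all genes tested). Their median was 0.06, and DESeq2 called 2 higher and 1 lower. Lars2, the mitochondrial leucyl-tRNA synthetase placed on that list, had 531 and 555 CPM in the clones and 302 CPM in untreated cells (log2 fold change 0.85 ± 0.05, SE; edgeR adjusted p = 2.83e-09). Noa1, a GTPase gene of small subunit assembly, had 47.9 and 53.2 CPM against 79.6 CPM (log2 fold change -0.65, edgeR adjusted p = 5.37e-06). Dhx30, an RNA helicase gene, had 177 and 174 CPM against 131 CPM (log2 fold change 0.42).

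Among 15 mitochondrial translation factor genes, edgeR called 2 higher and 1 lower (20%, against 50.1% of all genes tested). Their median was 0.02, and all 15 lay within 1.25-fold, with a standard deviation of 0.18. DESeq2 called 0 in either direction. Lrpprc, which encodes an mRNA stabilising protein, had a log2 fold change of 0.25, and Oxa1l, which encodes the membrane insertase that docks the ribosome, had 0.29. Gfm2, an elongation factor paralogue that acts in ribosome recycling, had -0.28.

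The 17 genes of mitochondrial DNA maintenance and transcription had 5 called higher and 2 lower (41.2%, against 50.1% of all genes tested). Their median was 0.02, and DESeq2 called 2 higher and 0 lower. Polg, the mitochondrial DNA polymerase gene on chromosome 7, had 191 and 195 CPM in the clones and 112 CPM in untreated cells (log2 fold change 0.78, edgeR adjusted p = 2.74e-08). Twnk, which encodes the replicative helicase, had 61.2 and 62.5 CPM against 40.3 CPM (log2 fold change 0.62). Hsd17b10, a subunit gene of mitochondrial RNase P on chromosome X, had 65.5 and 61.0 CPM against 82.6 CPM (log2 fold change -0.39).

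Of 9 regulators of mitochondrial biogenesis, 7 rose and 1 fell, at a median of 0.42, while the ribosomal protein genes had a median of -0.03. That is 77.8% higher and 11.1% lower, against 24.3% and 25.8% of all genes tested. DESeq2 called 4 of the regulators higher and 1 lower, while it called 22.2% of all genes. Nrf1, a transcription factor with target sites in many genes of this kind, had 76.6 and 79.7 CPM in the clones and 38.0 CPM in untreated cells, which is 1.04 ± 0.08 as log2 fold change (± SE; edgeR adjusted p = 3.48e-08). Pprc1, a coactivator of the PGC-1 family, had 140 and 136 CPM against 82.2 CPM, and Esrra, an estrogen-related receptor gene, had 86.7 and 87.9 CPM against 60.9 CPM. Both clones lay above untreated cells for these 3 genes. The gene that fell was Mycn, a transcription factor gene of the Myc family, with 1.07 and 2.43 CPM in the clones and 6.41 CPM in untreated cells (log2 fold change -1.87, edgeR adjusted p = 0.000263), named after its value was seen.

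Of 15 RNAs encoded in mitochondrial DNA, 2 rose and 6 fell, so 53.3% were called, near the 50.1% of all genes tested. By direction, 13.3% were higher and 40% lower, against 24.3% and 25.8% of all genes tested. The summed level of the 15 was 14768 and 12670 CPM in the clones and 16742 CPM in untreated cells. DESeq2 called 0 of them higher and 2 lower. Their median log2 fold change was 0.07, opposite in sign to the majority of the calls, and 9 of the 15 lay above 0. Several of those 9 had few counts, such as mt-Nd4l (6 and 14 in the clones, 10 in untreated cells). Another was mt-Atp8 (24 and 29 in the clones, 17 in untreated cells). The median gives such RNAs the same weight as abundant ones. Of abundant RNAs, mt-Nd5 also lay above 0 and was not called (log2 fold change 0.13). The lowest p was that of mt-Co1, a cytochrome oxidase subunit gene, which had 2265 and 2051 CPM in the clones and 3276 CPM in untreated cells (log2 fold change -0.60, edgeR adjusted p = 2.30e-07). The complex I gene mt-Nd1 had 1276 and 1063 CPM against 1855 CPM (log2 fold change -0.67). Another complex I gene, mt-Nd6, had 90.8 and 70.1 CPM in the clones and 50.1 CPM in untreated cells (log2 fold change 0.68). It lies on the opposite strand from most mitochondrial genes, and whether reads were counted by strand is unknown here, so its value is uncertain. The other gene that rose was the cytochrome oxidase gene mt-Co3, named after its value was seen, with 135 and 126 counts in the clones and 74 counts in untreated cells (log2 fold change 0.92). These counts are far below those of mt-Co1, with 25433 and 22822 in the clones and 39373 in untreated cells. The mt-Co3 value therefore rests on few reads and is uncertain, and why they are few was not tested. The ribosomal RNA mt-Rnr1 had 88.3 and 103 CPM in the clones and 91.5 CPM in untreated cells, a value between the clones, and mt-Rnr2 had 385 and 357 CPM against 413 CPM (log2 fold change -0.15, edgeR adjusted p = 0.0289). The libraries were made from polyadenylated RNA, so these counts of ribosomal RNA are not their cellular amounts.

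**Figure D4:**
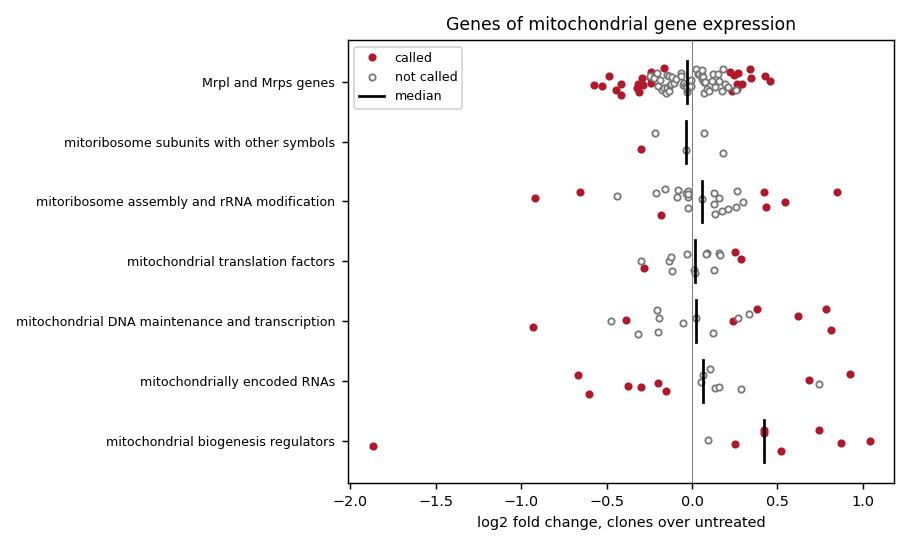
Log2 fold change of the clones over untreated cells for the 77 Mrpl and Mrps genes and for 6 lists of genes of mitochondrial gene expression, with 1 point a gene, called genes in red and the median as a black bar. The medians lie between -0.03 and 0.07 except for the biogenesis regulators, at 0.42.

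Many members share a start region with a neighbour on the opposite strand. In the Gencode M21 annotation, 33 of the 77 genes have a protein-coding gene on the other strand that starts within 1000 bases, which makes 32 pairs, and both genes of 29 pairs were tested. One pair joins members of both subunits: Mrps11 had 63.3 and 65.6 CPM in the clones and 59.2 CPM in untreated cells, and Mrpl46 had 42.9 and 43.2 CPM against 37.3 CPM. Neither was called. Among partners, 9 were higher and 4 lower of 29, beside 50.1% called over all genes tested. Both genes were called in 7 pairs, 4 of them in the same direction and 3 in opposite directions. Changes had the same sign in 14 of the 29 tested pairs. With 35.1% of members and 50.1% of all genes called, some pairs with both genes called can occur without any link. Such pairs were not counted over all genes, and a link within pairs was not tested.

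The pairs with opposite calls were Mrpl49 with Fau, Mrpl43 with Twnk and Mrpl14 with Tmem63b. The starts of Mrpl49 and Fau lie 59 bases apart, and no exon overlap between the pair is annotated. Exons of Mrpl49 do overlap those of another gene, Syvn1, on the opposite strand, so reads of that shared part are uncertain. Fau, which encodes a cytosolic small subunit protein fused to a ubiquitin-like protein, had 516 and 537 CPM in the clones and 372 CPM in untreated cells (log2 fold change 0.50 ± 0.05, SE; edgeR adjusted p = 9.49e-07). Mrpl49 had 73.7 and 74.6 CPM in the clones and 90.7 CPM in untreated cells. Exons of Mrpl43 and Twnk overlap on opposite strands. Mrpl43, found only in mitochondria, had 51.4 and 57.9 CPM in the clones and 64.4 CPM in untreated cells (log2 fold change -0.24), while Twnk rose. Exons of Mrpl14 and of Tmem63b, a membrane channel gene, also overlap on opposite strands, and Tmem63b had 94.5 and 86.5 CPM in the clones and 108 CPM in untreated cells (log2 fold change -0.26). Of pairs with calls in the same direction, Mrpl18 and the chaperonin gene Tcp1 both rose, and Mrpl36 and the complex I gene Ndufs6 both fell, and exons overlap on opposite strands in both pairs. Without exon overlap, Mrpl41 and Pnpla7, a lysophospholipase gene, both rose (log2 fold changes 0.29 and 0.81), and Mrps5 and the zinc finger gene Zfp661 both fell (-0.25 and -1.08).

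**Figure D5:**
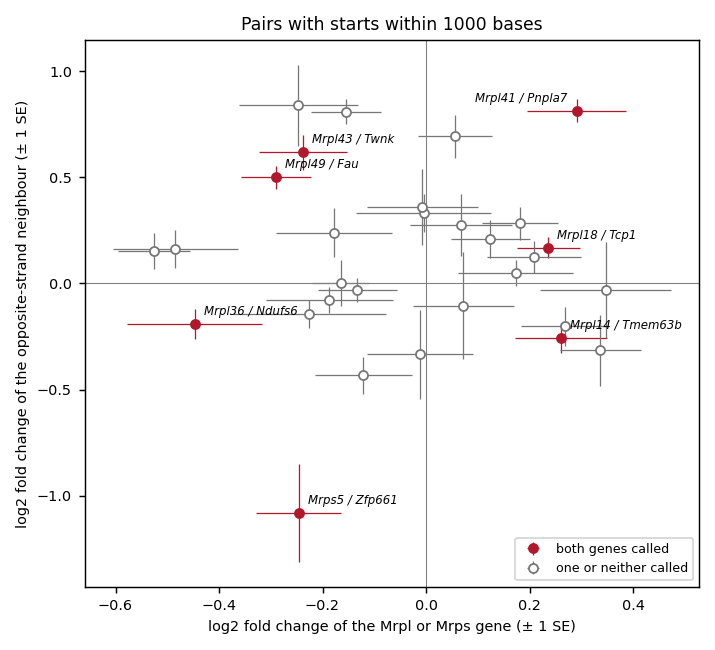
Log2 fold change of the opposite-strand neighbour (vertical) against that of the Mrpl or Mrps gene (horizontal), with bars of 1 SE, for pairs whose starts lie within 1000 bases; the pair of Mrps11 and Mrpl46 is drawn both ways round. The 7 named red points have both genes called, 4 of them with changes of the same sign and 3 of opposite sign.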

How the data were processed

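Polyadenylated RNA was sequenced from stranded libraries, per the labels' protocols. The deposited counts are whole reads per gene from STAR, without normalization, and the deposited RPM columns scale them by mapped reads (per the file headers), with no test run on them. STAR is version 2.5 per the file headers, which also give Gencode M16 (Ensembl 91) on GRCm38/mm10, and version 2.5.3 per the submitters' processing notes. The authors' deposited table gives a log2 fold change, its standard error (recorded under the unit score) and a p-value with its adjusted value from DESeq2. No source used here gives the strand setting of the counting, and 32 of the 77 genes have exons overlapping another gene.

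Here edgeR 4.0.16 (R 4.3.3) tested the 2 clones against 1 untreated library on 13705 genes kept by filterByExpr, with TMM factors, the quasi-likelihood F test with the legacy option off, two-sided, and Benjamini-Hochberg adjustment over all genes at 0.05. The standard error is the size of the log2 fold change over the square root of F. On simulated counts for these genes, 50 genes changed at each size were recovered in 42% of cases at 1.25-fold, 76% at 1.5-fold and 86% at 2-fold, if the untreated library varies like the clones. Alternatives used DESeq2 1.42.0 and limma 3.58.1. Positions and lengths are from Gencode M21 (GRCm38). The members and lists were chosen with earlier results of these data known. The rule for named members took 10 called genes by size of change in each direction, 13 fixed genes, and the 3 lowest p-values of each list. Others, among them Mrpl10, the S18 paralogues, Mrpl46 and the neighbour pairs, were chosen after their values were seen. One marker list is not reported here.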

Additional observations from a re-analysis of the deposited data

How the results depend on the processing

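The counts of 11 members higher and 16 lower stayed within 1.5 times with RLE size factors (11 and 15), a mean CPM of at least 1 (11 and 19), the legacy quasi-likelihood fit (11 and 16) and limma-voom (10 and 14). Without chromosomes 7, 15, 18 and X they were 11 and 13 of the 70 members left, which had 10 and 15 in the main fit. DESeq2 gave 1 and 2. Without a low-count filter edgeR gave 0 and 0, also with the legacy fit, when it called 0 genes higher and at most 4 lower of 22976, and 14 and 12 members had an unadjusted p under 0.05. With a preset variation of 10% and of 20% (edgeR likelihood ratio test), chosen after seeing the data like the legacy fit without filter, 0 and 2, then 0 and 0 members were called, with 8 and 0 at an unadjusted p under 0.05; over all 13705 genes, 1436 were higher and 2181 lower at 10%, and 156 and 992 at 20%. The pathway lists had 20 genes higher and 14 lower in all, and 8 and 4 with DESeq2. The median of the members lay between -0.04 and -0.02 in these settings, and leaving out a clone gave -0.06 to -0.01. Of the 21 named called members, 3 kept the call with DESeq2 and 0 without a filter, and none changed sign in the settings run for them. Mrpl58, not called, was 0.0113 without clone 1 and -0.0873 without clone 2. The median level per kilobase in untreated cells was 19.5 CPM by exon union and 52.5 CPM by median transcript. With 1 clone left out, calls could not be tested. No paired analysis was possible because the untreated group has 1 library. In simulated counts, 42% of genes changed by 1.25-fold were recovered, and smaller changes were not simulated. Far fewer genes changed there than were called here, so this recovery need not hold for the members.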
